A study of Mus musculus with 8 samples.

Results

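The respiratory chain genes of the nuclear genome were examined in LSK cells, which are bone marrow cells of the mouse that lack lineage antigens and carry Sca-1 and c-Kit, the compartment of blood stem cells and early progenitors. Members were taken by gene symbol: the Nduf genes of the a, b, c, s and v series, Sdha to Sdhd, the Uqcr genes, the Cox4 to Cox8 genes other than Cox6a2, and the Atp5 genes. The rule found 86 of the 13708 genes in the table. By their known place in the chain, 76 encode subunits, with 35 in complex I, 4 in complex II, 8 in complex III, 14 in complex IV and 15 in complex V. Ndufa4 was counted with complex IV, where its protein is now placed. The other members were 8 assembly factors of complex I, the Ndufa4 paralog Ndufa4l2, and Atp5s, a coupling factor B gene.

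Polyadenylated RNA of sorted cells was sequenced from 4 samples of db/m mice (strain B6.BKS(D)-Leprdb/+, heterozygous for the leptin receptor mutation) and 4 samples of db/db mice (strain B6.BKS(D)-Leprdb/J, homozygous for it). All 8 samples were labelled 6 months post-diabetes, the heterozygous controls included. Since every title carries the db/m name, groups were set by the genotype label. No label says whether the libraries of a group stem from separate mice, so a p-value here measures only the spread between samples, which may be technical. The reads counted on genes numbered between 27640853 and 42806327 per library. Levels are given as CPM, counts scaled by TMM to a common library total, and between genes as RPKM, CPM per kilobase of the deposited gene length.

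The respiratory chain sits in the inner mitochondrial membrane. Complexes I and II pass electrons from NADH and succinate to coenzyme Q, complex III passes them on to cytochrome c, and complex IV passes them to oxygen. Complexes I, III and IV pump protons, and complex V, the ATP synthase, makes ATP as the protons return. Complexes I, III, IV and V are built from both nuclear and mitochondrial genes, and complex II from nuclear genes only. In bone marrow, the most primitive stem cells are known for low use of this chain, which grows as they differentiate.

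The label of the cells was checked against marker genes. All 11 LSK markers were measured, with a summed level of 3383 to 4730 CPM per library. Of 11 lineage antigens 10 were measured, with a summed level of 75.9 to 147 CPM, and Ly6g was not analysed here. Kit was at 563 to 799 CPM in db/m and 621 to 1054 CPM in db/db, whereas Ly6a, which encodes Sca-1, was at 317 to 568 CPM in db/m and 91.7 to 178 CPM in db/db.

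With edgeR's quasi-likelihood test 0 members passed the threshold of 0.05 on the adjusted p, against a background of 0.0365% of all genes tested. The lowest adjusted p was 0.140, for Ndufa1. Yet 75 of the 76 subunits had a negative log2 fold change of db/db against db/m, where 48.6% of all genes did. The exception was Cox6b2, known as the testis form of a cytochrome oxidase subunit. The share of negative values also depended on gene length. Among other genes with an average log2 CPM of at least 4, it was 80.45% for those of up to 700 bases. It was 79.33% for those of 700 to 1000 bases and 39.88% for those over 4000 bases. The median log2 fold change of the subunits was -0.18, and that of all genes was 0.01. The values of single subunits ran from -0.63 to 0.39 with a median SE of 0.14, and the 95% interval included 0 for 67 of the 76. At an unadjusted p under 0.05, 9 subunits (11.8%) were lower in db/db, beside 7.55% of all genes, and 0 were higher, beside 7.63% of all genes. In 3 subunits (3.95%) all db/db libraries lay below all db/m libraries, beside 4.53% of all genes, and in 0 did they lie above, beside 4.5% of all genes. Those 3 were Ndufa1, Ndufa13 and Atp5j. In bulk RNA of this kind, fewer cells of a type and less RNA per cell cannot be told apart.

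**Figure D1:**
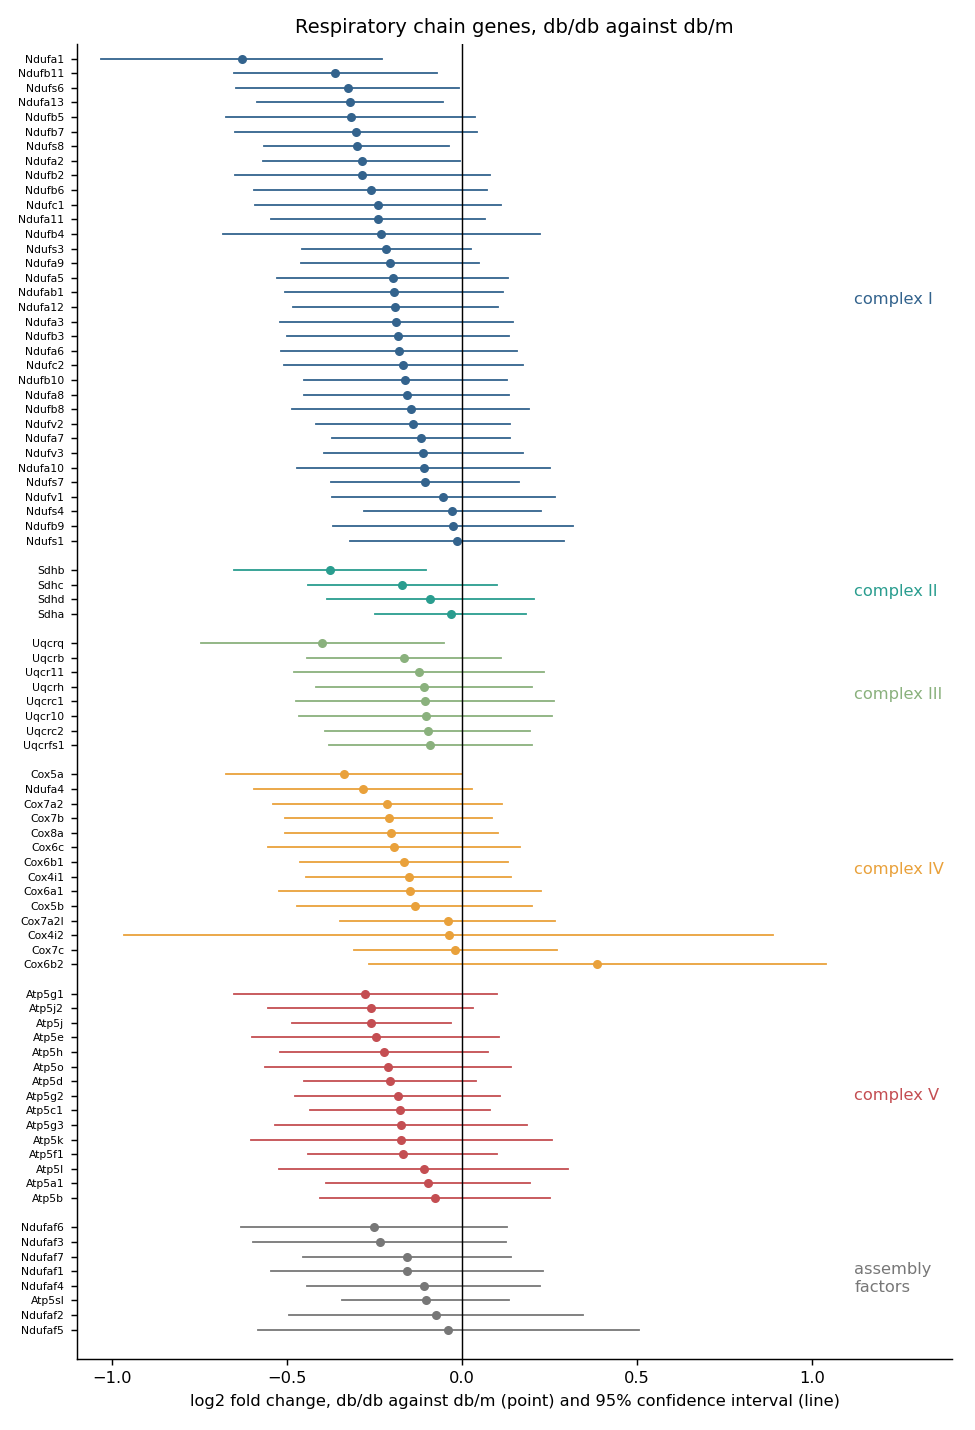
Log2 fold change of db/db against db/m for 75 of the 76 subunits and the 8 assembly factors, grouped by complex. Points are the fitted values of 4 against 4 libraries and lines are 95% confidence intervals; all points but that of Cox6b2 lie below 0, and most lines cross 0.

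In 3 subunits (3.95%) the groups did not overlap with db/db lower, beside 4.53% of all genes. The promoters of these 3 subunits are shown as examples, with that of Uqcr11, which holds an NRF-1 motif and an Ets motif. They were read from RefSeq (GRCm38.p6) as windows of 250 bases before to 50 after the start of transcription, 5′ to 3′ on the minus strand. Capitals mark matches to the motifs searched on both strands, which were GCGCATGCG (NRF-1), CCGGAAGT (Ets family, which holds GABP), AAGATGGCG (YY1), GGGCGG (Sp1) and TGACGTCA (CREB).
Ndufa1 (chrX:37191189-37191488): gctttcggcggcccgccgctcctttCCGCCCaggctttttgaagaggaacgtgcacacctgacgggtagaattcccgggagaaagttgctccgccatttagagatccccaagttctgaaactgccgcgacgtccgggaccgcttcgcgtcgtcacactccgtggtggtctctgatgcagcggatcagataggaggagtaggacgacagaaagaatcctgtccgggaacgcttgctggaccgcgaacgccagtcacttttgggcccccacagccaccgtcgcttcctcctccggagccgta
Ndufa13 (chr8:69901971-69902270): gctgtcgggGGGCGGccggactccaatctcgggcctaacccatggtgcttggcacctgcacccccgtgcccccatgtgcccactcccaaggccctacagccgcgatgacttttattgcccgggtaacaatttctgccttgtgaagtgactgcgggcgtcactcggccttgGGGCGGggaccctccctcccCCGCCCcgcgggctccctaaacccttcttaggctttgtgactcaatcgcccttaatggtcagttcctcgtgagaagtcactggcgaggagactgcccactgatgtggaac
Atp5j (chr16:84834927-84835226): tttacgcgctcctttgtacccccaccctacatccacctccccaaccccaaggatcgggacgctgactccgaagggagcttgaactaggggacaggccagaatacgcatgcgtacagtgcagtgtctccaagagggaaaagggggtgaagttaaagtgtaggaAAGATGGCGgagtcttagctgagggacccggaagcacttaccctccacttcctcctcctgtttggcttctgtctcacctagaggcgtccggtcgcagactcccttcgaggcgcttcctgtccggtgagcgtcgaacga
Uqcr11 (chr10:80406772-80407071): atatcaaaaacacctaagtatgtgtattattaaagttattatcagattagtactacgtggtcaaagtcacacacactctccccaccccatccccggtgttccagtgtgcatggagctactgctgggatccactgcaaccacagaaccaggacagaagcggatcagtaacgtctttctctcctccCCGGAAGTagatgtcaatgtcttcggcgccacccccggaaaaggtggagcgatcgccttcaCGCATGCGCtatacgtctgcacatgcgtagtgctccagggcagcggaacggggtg
Ndufa1 held 1 Sp1 match, from base 26 of the window, and Ndufa13 held 3. Atp5j has a second window upstream with 2 Sp1 matches, and the window shown holds 1 YY1 match from base 163. Uqcr11 held an Ets match from base 185 and an NRF-1 match from base 246, across the start. The deposited intervals of Ndufa13 and Atp5j reach upstream past the windows shown, and that of Atp5j starts within its window not shown, so neither printed sequence belongs to the deposited start.

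Of the 86 members 72 had a promoter window in the table, 3 of them under a newer symbol. The NRF-1 motif was in 10 of the 72 (13.9%), the genes being Ndufa8, Ndufa11, Uqcrc1, Uqcr11, Cox6a1, Atp5g2, Atp5l, Atp5k, Ndufaf4 and Ndufaf5. It was in 4.0% of the 10417 tested genes with a window, and in 1.75% of all 32851 windows. The YY1 motif was in 8 members (11.1%) and in 3.42% of tested genes and 1.4% of all windows. The Ets motif was in 5 members (6.94%), in 8.65% of tested genes and in 3.89% of all windows. The Sp1 motif was in 33 members (45.8%), in 66.9% of tested genes and in 35.7% of all windows. The CREB motif was in 4 members (5.56%), in 3.53% of tested genes and in 1.79% of all windows. The median log2 fold change was -0.14 for members with the NRF-1 motif and -0.19 for those without it. For the YY1 motif the medians were -0.22 and -0.17, and for the Ets motif -0.20 and -0.17. They were -0.180 and -0.174 for the Sp1 motif and -0.174 and -0.176 for the CREB motif. These counts describe letters in a window and not bound sites.

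Complex I, the NADH dehydrogenase, had a median log2 fold change of -0.19, with all 35 members negative. At an unadjusted p under 0.05, 6 (17.1%) were lower, beside 7.55% of all genes. Ndufa1, a small membrane subunit needed to assemble the complex, lies on chromosome X from 37187589 to 37191238 (mm10, minus strand). It was at 96.8, 99.5, 79.4 and 114 CPM in the db/m libraries and 52.5, 47.4, 75.6 and 76.3 CPM in the db/db libraries. The groups did not overlap, but db/m 3 and the higher pair of db/db libraries, 3 and 4, were close. The means were 97.4 ± 14.2 and 63.0 ± 15.2 CPM (SD, n = 4 each), and the log2 fold change was -0.63 ± 0.18 (SE), with a 95% interval from -1.03 to -0.23 and an adjusted p of 0.140 by edgeR. Ndufa1 was the only member called by other tests: DESeq2, which called 5.52% of all genes, gave an adjusted p of 0.0409, and the authors' deposited table, in which 4.28% of genes are under 0.05, gives it a false discovery rate of 0.0474. With the level of the plasma cell markers, itself lower on average in db/db, as a covariate, the log2 fold change of Ndufa1 was -0.06 (adjusted p = 0.939, edgeR). From the single db/m library with under 20% intergenic reads it was -0.33. Over all refits its adjusted p ran from 0.0409 to 0.939. The next lowest false discovery rate of a member in the authors' deposited table is 0.180, for Sdhb.

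Ndufa13, also known as GRIM-19 and first described as a cell death gene, lies on chromosome 8 from 69894182 to 69902558. It was at 82.2, 81.2, 77.5 and 95.5 CPM in db/m and 63.9, 59.1, 77.4 and 69.0 CPM in db/db. The groups did not overlap, but db/m 3 and db/db 3 nearly met. Its log2 fold change was -0.32 ± 0.12 (SE, adjusted p = 0.247, edgeR). Ndufb11, an X-linked subunit of the membrane arm, was at 68.7, 77.7, 69.4 and 86.0 CPM in db/m and 51.1, 53.6, 69.1 and 61.1 CPM in db/db. Here db/db 3 stood above db/m 1, and the log2 fold change was -0.36 ± 0.13 (SE, adjusted p = 0.230, edgeR).

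The 7 core subunits of complex I, which carry the flavin, the iron-sulfur clusters and the coenzyme Q site, had a median log2 fold change of -0.14. The 28 supernumerary subunits, which surround the core and serve its assembly and stability, had a median of -0.20. With the trend of each library on gene length taken out, the order turned, to -0.07 for the core and -0.05 for the supernumerary subunits, whose median lengths are 1606 and 638 bases. Ndufs8, an iron-sulfur core subunit, had a log2 fold change of -0.30 ± 0.12 (SE). Ndufs1, the largest core subunit and carrier of several iron-sulfur clusters, was at -0.01, and Ndufv1, which binds NADH, at -0.05. Among the supernumerary subunits Ndufs6, a zinc-binding subunit of the matrix arm, was at -0.33 and Ndufa2, also of the matrix arm, at -0.29. Ndufs4, whose loss gives a mouse model of Leigh syndrome, was at -0.03. By level, complex I subunits ran from 22.4 RPKM for Ndufa11 to 230 RPKM for Ndufb8, with a median of 87.9 RPKM. The sum over the 35 genes was 2783, 3047, 3248 and 3515 CPM in db/m and 2547, 2425, 3295 and 2769 CPM in db/db. The groups overlapped, since db/db 3 was second only to db/m 4.

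Complex II, the succinate dehydrogenase, had a median log2 fold change of -0.13. Its catalytic subunits had unlike values. Sdhb, the iron-sulfur subunit (chromosome 4, 140961271 to 140979192), was at 185, 207, 238 and 233 CPM in db/m and 156, 146, 192 and 172 CPM in db/db. Only db/db 3 stood above a db/m library, db/m 1. The log2 fold change was -0.38 ± 0.12 (SE), with a 95% interval from -0.65 to -0.10 and an adjusted p of 0.189 (edgeR). Sdha, the flavin subunit that oxidizes succinate, was at 585, 635, 682 and 646 CPM in db/m and 651, 585, 641 and 615 CPM in db/db. These ranges lay almost on top of each other, and the log2 fold change was -0.03 ± 0.10 (SE). The membrane anchors Sdhc and Sdhd had log2 fold changes of -0.17 and -0.09. Per length, Sdha at 220 RPKM, Sdhb at 178 RPKM and Sdhd at 175 RPKM were at about the same level over the 8 libraries, and Sdhc was at 84.5 RPKM.

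Complex III, the cytochrome bc1 complex, had a median of -0.11, with all 8 members negative. Uqcrq, a small subunit next to cytochrome b (chromosome 11, 53428948 to 53430831), was at 94.0, 121, 105 and 113 CPM in db/m and 73.9, 64.0, 104 and 85.7 CPM in db/db. Only db/db 3 reached the range of the db/m libraries. The log2 fold change was -0.40 ± 0.16 (SE, adjusted p = 0.266, edgeR). The other 7 members lay between -0.17 and -0.09. These were the core proteins Uqcrc1 (-0.11) and Uqcrc2 (-0.10), the Rieske iron-sulfur protein Uqcrfs1 (-0.09), and the small subunits Uqcrb (-0.17), Uqcr11 (-0.12), Uqcrh (-0.11) and Uqcr10 (-0.10). Uqcrc1 was at 401, 458, 542 and 531 CPM in db/m and 405, 368, 598 and 424 CPM in db/db. Its highest library was db/db 3 and its lowest db/db 2.

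Complex IV, the cytochrome c oxidase, had a median of -0.16, with 13 of 14 members negative and 0 at an unadjusted p under 0.05. Cox5a, a matrix-facing subunit (chromosome 9, 57521232 to 57532426), was at 102, 115, 131 and 142 CPM in db/m and 84.7, 82.8, 121 and 99.1 CPM in db/db. Its log2 fold change was -0.34 ± 0.15 (SE, adjusted p = 0.329, edgeR), and db/db 3 lay within the db/m range. Ndufa4 was at 146, 156, 172 and 214 CPM in db/m and 133, 126, 165 and 142 CPM in db/db, a log2 fold change of -0.28 ± 0.14 (SE). For Ndufa4, too, db/db 3 was inside the db/m range while the other db/db libraries were below it. Cox7b, an X-linked subunit, had a log2 fold change of -0.21, Cox7a2 one of -0.21 and Cox8a one of -0.20. Cox7a2l, a factor that joins complexes III and IV into supercomplexes, was at -0.04, and Cox7c at -0.02.

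Isoform pairs of complex IV were set side by side per length over the 8 libraries. Cox4i1, the common form of subunit 4, was at 391 RPKM and its isoform Cox4i2, known from lung and from low oxygen, at 2.43 RPKM. Cox4i2 had 35 to 94 reads per library and a log2 fold change of -0.04 ± 0.42 (SE), a range too wide to compare with that of Cox4i1, -0.15 ± 0.13 (SE). Cox6b1 was at 266 RPKM and Cox6b2 at 23.0 RPKM. Cox6b2 was at 10.9, 8.46, 12.998 and 16.7 CPM in db/m and 11.6, 14.1, 25.2 and 13.3 CPM in db/db. Apart from db/db 3 the libraries overlapped, and the log2 fold change of Cox6b2 was 0.39 ± 0.29 (SE, adjusted p = 0.579, edgeR). Ndufa4l2, which takes the place of Ndufa4 in low oxygen, had 13 to 19 reads per library in db/m and 3, 0, 6 and 18 reads in db/db. A count of 0 in db/db 2 allows up to 0.0912 CPM, counting error only, and the log2 fold change of -1.42 ± 0.94 (SE) rests on these few reads. Cox7a1 was not analysed here.

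Complex V, the ATP synthase, had a median of -0.18 with all 15 members negative. Atp5j, coupling factor 6 of the peripheral stalk, lies on chromosome 16 from 84827871 to 84835625. It was at 156, 156, 175 and 178 CPM in db/m and 132, 127, 154 and 142 CPM in db/db. Every db/db library was below every db/m library, with db/db 3 just under db/m 1 and 2. The log2 fold change was -0.26 ± 0.10 (SE), with a 95% interval from -0.49 to -0.03 and an adjusted p of 0.268 (edgeR). The 4 peripheral stalk genes had a median of -0.22, the 5 genes of the F1 head one of -0.18, the 3 genes of the c ring one of -0.18 and the other 3 membrane subunits one of -0.17. Atp5j2, one of these 3, was at -0.26. In the head, Atp5d, the delta subunit of the central stalk, was at -0.20 and Atp5b, the catalytic beta subunit, at -0.08. Atp5b had the highest level of all subunits, 913 RPKM, and was at 1568, 1774, 1907 and 1798 CPM in db/m and 1471, 1431, 2140 and 1633 CPM in db/db. Its highest library was db/db 3. The c ring genes Atp5g1, Atp5g2 and Atp5g3, which encode the same mature protein, were at 151, 52.9 and 296 RPKM and had log2 fold changes of -0.28, -0.18 and -0.17.

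**Figure D2:**
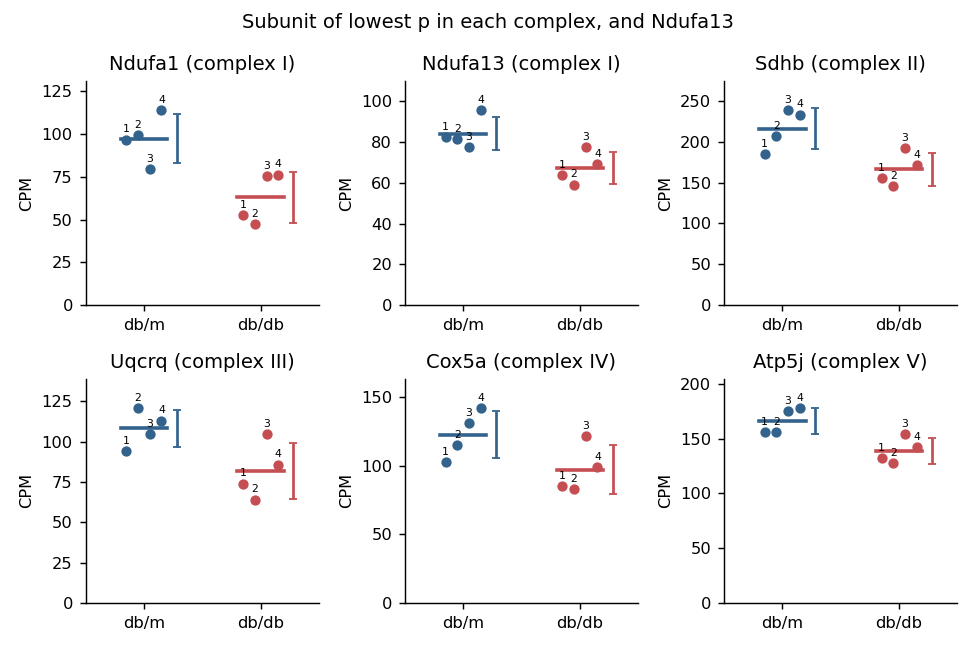
CPM of Ndufa1, Ndufa13, Sdhb, Uqcrq, Cox5a and Atp5j in each library (points, numbered by replicate) with the mean (bar) and SD (whisker) of 4 libraries. The groups do not overlap for Ndufa1, Ndufa13 and Atp5j; in all but Ndufa1, db/db 3 is the highest of the db/db libraries.

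The 8 assembly factors, which build complex I and leave it, were all negative by log2 fold change, with their median at -0.13 and 0 at an unadjusted p under 0.05. The values were -0.25 for Ndufaf6, -0.24 for Ndufaf3, -0.16 for Ndufaf7 and Ndufaf1 and between -0.11 and -0.04 for the other 4. Ndufaf3 was at 18.1, 21.9, 24.6 and 27.9 CPM in db/m and 18.8, 19.8, 19.4 and 20.5 CPM in db/db. Those of db/m were spread and the db/db libraries were nearly equal. Atp5s, one of the 2 members with a positive log2 fold change, was at 0.12 ± 0.18 (SE).

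The 5 complexes were compared within each library. For this, the log2 CPM of each gene was set against its own mean over the 8 libraries and averaged over the members. Complex I was at -0.07, 0.07, 0.13 and 0.29 in db/m and -0.21, -0.28, 0.15 and -0.08 in db/db on this log2 scale. Complex V was at -0.08, 0.09, 0.14 and 0.25 in db/m and -0.25, -0.29, 0.21 and -0.06 in db/db. Complex IV was at -0.07, -0.04, 0.08 and 0.30 in db/m and -0.25, -0.24, 0.23 and 0.00 in db/db. In every complex db/m 4 was the highest library, db/m 1 was below 0, and db/db 3 stood with the db/m libraries. Of the 76 subunits 49 were highest in db/m 4 and 15 in db/db 3, while 45 were lowest in db/db 2 and 26 in db/db 1. The sample titles of db/db 1 and 2 share a prefix, as do those of db/db 3 and 4. Those of db/m 1, 2 and 3 share another, and db/m 4 has its own. Each prefix lies within 1 genotype, so its part cannot be told apart from that of the genotype. The mean over all subunits was 0.09 ± 0.15 in db/m and -0.09 ± 0.20 in db/db (SD, n = 4 each), and the groups overlapped for each complex.

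The difference between any 2 complexes within a library does not depend on how libraries are scaled. All 10 pairs of complexes were formed, and in all 10 the groups overlapped. The widest was complex I less complex IV, at 0.04 ± 0.06 in db/m and -0.04 ± 0.05 in db/db (SD, n = 4 each). Complex I less complex V was 0.01 ± 0.03 in db/m and -0.01 ± 0.04 in db/db. The level common to all subunits ran from -0.07 to 0.28 within db/m and from -0.27 to 0.18 within db/db, and the group means differed by -0.19.

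**Figure D3:**
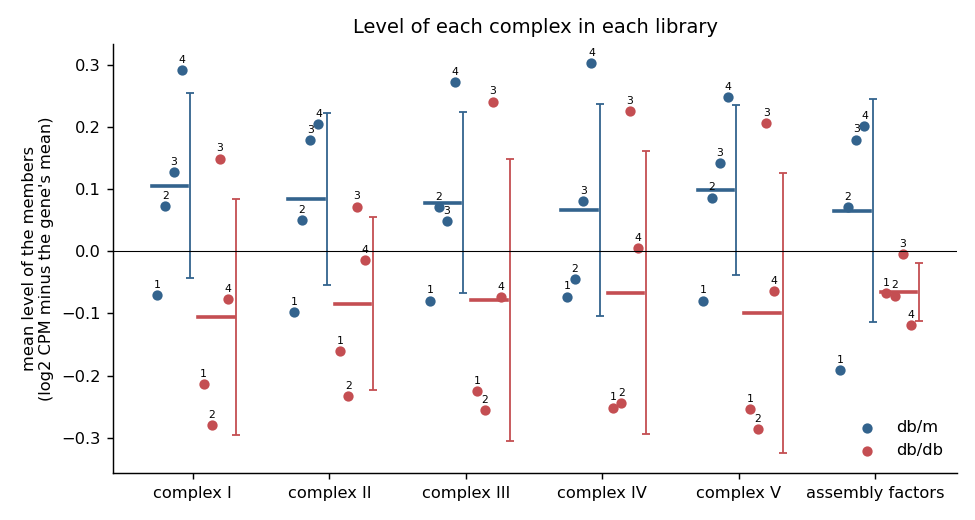
Mean level of the members of each complex in each library, as log2 CPM minus the mean of the gene over 8 libraries (points, numbered by replicate, with the group mean as a bar and the SD as a whisker). In each of the 5 complexes db/m 4 is highest and db/db 1 and 2 are lowest, and db/db 3 lies among the db/m libraries.

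Single libraries moved these values. Without db/db 3 the subunit median was -0.28, with 74 of 76 negative, and without db/m 4 it was -0.11, with 70 negative. Without the library of lowest quality weight in each group, number 3 of both, it was -0.27. For the single complexes the lowest medians came without db/db 3 and the highest without db/m 4. They ran from -0.29 to -0.14 for complex I, -0.19 to -0.07 for II, -0.23 to -0.04 for III, -0.30 to -0.09 for IV and -0.30 to -0.14 for V. The order of the complexes was not stable: the lowest median was that of complex I in 13 of 23 refits, of complex V in 9 and of complex IV in 1, and the highest was that of complex III in 16, of complex II in 5 and of complex IV in 2. Some of these refits change only the test or the filter and leave the fold changes all but the same, so the counts are not of independent settings.

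The members are short genes, with a median deposited length of 726 bases for the subunits and 2847 bases for all genes. Among all other genes with an average log2 CPM of at least 4, the median log2 fold change followed length. It was -0.12 for 179 genes of up to 700 bases, -0.13 for 329 genes of 700 to 1000 bases, -0.10 for 812 genes of 1000 to 1500 bases and -0.06 for 2078 genes of 1500 to 2500 bases. It was -0.02 for 2588 genes of 2500 to 4000 bases and 0.05 for 2778 genes over 4000 bases. The subunits were lower in each class that held them, at -0.19 for 36 of up to 700 bases, -0.21 for 13 of 700 to 1000, -0.17 for 11 of 1000 to 1500 and -0.11 for 11 of 1500 to 2500 bases. The 3 subunits of 2500 to 4000 bases, at -0.03, were close to the other genes of that length. For the other genes of up to 700 bases the median centred level was also highest in db/m 4 (0.27) and db/db 3 (0.13) and lowest in db/db 1 and 2 (-0.18 and -0.16). With the trend of each library on length taken out as an offset, the subunit median was -0.05, with 60 of 76 negative, beside 45.1% of all genes and an all-gene median of 0.03. Under this offset the complex medians were -0.06 for I, -0.03 for II, -0.0016 for III, -0.02 for IV and -0.08 for V. The offset takes out any difference that short genes share, whatever its source, and was chosen after the length trend was seen. Ndufa1 then had a log2 fold change of -0.48 and Sdhb one of -0.26, while several members of small difference were above 0, among them Ndufs1, Ndufv1, Ndufs4, Uqcr10, Uqcr11 and Cox7c.

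**Figure D4:**
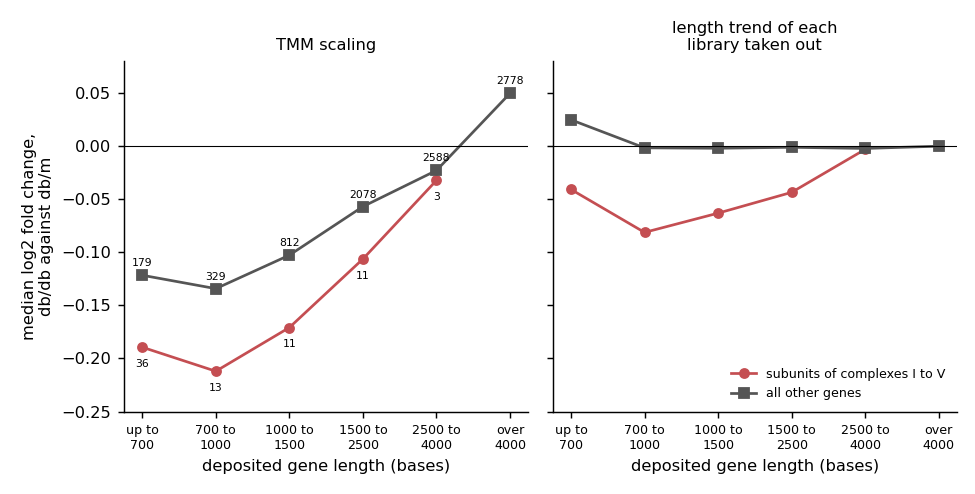
Median log2 fold change of db/db against db/m by deposited gene length, for subunits and for all other genes with an average log2 CPM of at least 4, with the number of genes beside each point (left), and the same with the length trend of each library taken out (right). On the left both lines climb from 1000 bases on, with the subunits lower (-0.19 against -0.12 in the shortest class); on the right the other genes lie near 0 and the subunits between -0.08 and 0.

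Other measures also moved between the groups, and their part in the result was not tested. All 12 plasma cell markers were negative (median log2 fold change -1.85), and their sum was 4453 to 18479 CPM in db/m and 1498 to 6454 CPM in db/db. With the level of that list as a covariate, the subunit median was -0.08, with 61 of 76 negative, and the complex medians were -0.12 for I, -0.07 for II, -0.04 for III, -0.01 for IV and -0.08 for V. On the centred log2 scale that level was 1.30, 1.42, -0.13 and 0.89 in db/m and -1.33, -1.63, -0.55 and 0.04 in db/db. It went largely with the genotype, so such a term takes out part of any group difference, whatever its source. By library the plasma cell sum was 17235, 18479, 4453 and 13384 CPM in db/m and 1932, 1498, 5380 and 6454 CPM in db/db. All 8 genes of dividing cells were negative too (median -0.24). Their sum was 1044, 947, 2142 and 1693 CPM in db/m and 1069, 1056, 1618 and 1129 CPM in db/db. It was highest in db/m 3, db/m 4 and db/db 3, which were also highest for the subunits. But it was lowest in db/m 2, whereas 45 of the 76 subunits were lowest in db/db 2 and 26 in db/db 1. All 10 erythroid markers had positive log2 fold changes, with sums of 786 to 1145 CPM in db/m and 1564 to 3475 CPM in db/db, and so did all 7 megakaryocyte markers, with sums of 600.2 to 1146 and 1516 to 2428 CPM. Of 8 granulocyte-monocyte markers 7 were negative, with sums of 3281 to 13516 and 2186 to 5502 CPM. Of 7 T and NK cell markers 6 were negative, with sums of 233 to 427 and 176 to 224 CPM, and of 4 B cell markers 4 were negative, with sums of 163 to 365 and 83.9 to 244 CPM.

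Reads between genes took 26.3%, 26.5%, 12.2% and 23.4% of uniquely mapped reads in db/m and 6.03%, 5.15%, 9.64% and 11.9% in db/db. Leaving out the 3 db/m libraries above 20% left a subunit median of -0.21, with 67 of 76 negative, from 1 db/m library. Reads on the mitochondrial region, which include the RNA of the partner subunits encoded there, took 0.445%, 0.355%, 0.336% and 0.548% of uniquely mapped reads in db/m and 0.494%, 0.523%, 0.699% and 0.841% in db/db. The groups overlapped, and the libraries high in this share, db/db 3 and 4, were not the libraries lowest in the nuclear subunits. The RNA integrity number was 9.5 to 10 in all libraries.

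Genes of neighbouring pathways were counted list by list, and 0 of them passed an adjusted p of 0.05 with edgeR. All list genes at an unadjusted p under 0.05 were lower in db/db. Among all genes, 7.55% were lower and 7.63% higher at that threshold. The counts per list are too small to set apart from those shares. DESeq2 and the likelihood ratio test each called 1, Ttc19. Of 10 carriers and subunits outside the symbol rule 9 were negative, with a median of -0.17 and 1 at an unadjusted p under 0.05. Cycs, cytochrome c itself, was at 70.4, 106, 114 and 99.3 CPM in db/m and 69.0, 60.5, 94.7 and 71.3 CPM in db/db, a log2 fold change of -0.40 ± 0.18 (SE). The order of the libraries was again low for db/m 1 and high for db/db 3. Higd1a and Higd2a, small proteins bound to complex IV, had log2 fold changes of -0.31 ± 0.19 and -0.28 ± 0.14 (SE). Of 39 assembly factors outside the rule 27 were negative, with a median of -0.11 and 2 at an unadjusted p under 0.05. Ttc19, an assembly factor of complex III, was at 32.5, 37.2, 24.6 and 28.5 CPM in db/m and 19.9, 19.8, 18.1 and 22.6 CPM in db/db, with a log2 fold change of -0.61 ± 0.16 (SE, adjusted p = 0.116 with edgeR and 0.0199 with DESeq2). Here the groups did not overlap and db/db 3 was the lowest library. Sdhaf1, which helps insert iron-sulfur clusters into Sdhb, had a log2 fold change of -0.32 ± 0.14 (SE), also without overlap, and Ecsit, of complex I assembly, one of -0.39 ± 0.18. Sdhaf3 of the same list did not overlap either but was higher in db/db, with a log2 fold change of 0.43 ± 0.24 (SE). Among all genes, 4.53% did not overlap with db/db lower and 4.5% with db/db higher.

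Of 11 coenzyme Q synthesis genes 7 were negative (median -0.07), 1 of them at an unadjusted p under 0.05. Coq2, which joins the ring to its isoprenoid tail, was at 101, 117, 109 and 109 CPM in db/m and 92.6, 94.3, 94.0 and 85.0 CPM in db/db, without overlap, and its log2 fold change was -0.25 ± 0.09 (SE, adjusted p = 0.250, edgeR). Coq4 was at -0.44 ± 0.23 and Coq9 at -0.13 ± 0.10 (log2 fold change and SE). Of 17 regulators of mitochondrial gene expression 10 were negative, with a median of -0.03 and 1 at an unadjusted p under 0.05. Among them Tfb1m, a methyltransferase of mitochondrial ribosomal RNA, had a log2 fold change of -0.41 ± 0.17 (SE), Esrra, a nuclear receptor that drives respiratory genes, one of -0.34 ± 0.22 and Gabpb2, a subunit of the GABP factor, one of 0.27 ± 0.16.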

How the data were processed

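Per the submitters' processing notes, the tools were FastQC 0.11.5, STAR 2.7.10a, featureCounts of Subread 2.0.3 and edgeR 3.40.2, and the build was mm10. Neither strand setting nor annotation is given in the sources used here. Antisense genes, and processed pseudogenes that share reads with these short genes, cannot be told apart from members. The authors deposited raw read counts of 13708 genes, the smallest total over libraries being 79, with gene lengths. They also deposited log2 CPM and log2 fold change values, p-values and false discovery rates, a signed fold change score, reads per mapped region, and the RNA integrity number, a score per sample. Columns of samples outside the series numbered 0.

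The counts were fitted with edgeR 4.0.16 in R 4.3.3. Scaling was by TMM, filterByExpr left every gene in, and the test was quasi-likelihood with robust shrinkage, no covariate, and Benjamini-Hochberg adjustment over all 13708 genes at 0.05. Log2 CPM used a prior count of 2. The biological coefficient of variation was 31.3%. Every pair of libraries differed by more than sampling noise, the lowest chi-square being 47.9 per gene. The steps were tested on simulated data. Alternatives used limma 3.58.1, DESeq2 1.42.0 and sva 3.50.0 (closing section). Lists were described by counts and medians, with no test.

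The members and lists were chosen with earlier results of these data known. Genes named per complex are the 3 of smallest p and the most abundant, every member with a log2 fold change of 0 or above or with groups that do not overlap, the isoform pairs of complex IV and, per neighbouring list, the 3 of smallest p. Sdhaf3 was added because its groups did not overlap. Other members, named for their role, were chosen after their values were seen. For 1 member of complex I, counted in all totals, its own values are not reported here.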

Additional observations from a re-analysis of the deposited data

Results flagged for a closer look

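Cox7a2, a subunit of complex IV, was at 97.6 CPM in db/m 4 against 73.0 to 76.9 CPM in the other db/m libraries, a gap that is a large share of the range of the group. Of 78 groups of 4 libraries examined this was the 1 set apart in this way, and chance sets apart about 1 in 20.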

How the results depend on the processing

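No paired analysis was possible because the numbers in the sample titles recur within a group and pair no db/m library with a db/db library. Scaling by RLE or upper quartiles, no filter or one of at least 1 CPM in 4 libraries, other tests, the title prefix as a correlated block, a surrogate variable, the plasma cell level, a length offset and omitted libraries made 23 refits. In all of them the subunit and complex medians were negative. Those with no filter, without robust shrinkage and by the likelihood ratio test left the medians all but unchanged. The count of called members was 1 with DESeq2 and 1 with the likelihood ratio test, Ndufa1 both times, and 0 otherwise. The likelihood ratio test gave Ndufa1 the same 0.0474 as the authors' deposited table, so these are not separate calls. Leaving out 1 library gave subunit medians of -0.28 to -0.11, with 70 to 75 of 76 negative. The assembly factor median was -0.29 when the 3 db/m libraries with over 20% intergenic reads were left out, where the lone db/m library is assumed to vary like the db/db libraries. The causes were not tested.

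Of all 86 members 59 kept their sign in every refit. Opposite signs were most frequent with the length offset, in 17 members, with the plasma cell level as a term, in 16, and without the 3 db/m libraries, in 10. Of the 32 members chosen by rule 24 kept their sign. With plasma cell markers as the covariate, log2 fold changes of opposite sign were 0.0029 for Atp5b, -0.40 for Atp5s, 0.20 for Cox7a2l, 0.59 for Ndufa4l2, 0.0033 for Uqcrb and 0.11 for Uqcrh. With the length offset they were 0.10 for Cox4i2, 0.068 for Cox7a2l, 0.0054 for Sdhd and 0.047 for Uqcrh. Without those db/m libraries they were -0.023 for Atp5s, 0.32 for Cox7a2l, 0.019 for Uqcrb and 0.13 for Uqcrh. Cox4i2 was at 0.26 without the libraries of lowest weight, and at 0.036 with quality weights. With 1 library left out, Cox4i2 ran from -0.32 to 0.18, above 0 without db/db 2, db/db 3 or db/m 3. Cox7a2l ran from -0.15 to 0.063, above 0 without db/m 4 or db/m 1, and Uqcrh from -0.19 to 0.0038, above 0 without db/m 4. Depth was 27640853 counts or more per library, and with 4 libraries a group the 95% interval included 0 for 67 of 76 subunits.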
